A study of Mus musculus with 10 samples.

Results

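The 33 genes described here build cholesterol, control its supply, move it inside and out of cells or store it. They were taken by symbol from the deposited count table, 1 row per Ensembl gene, among 40481 distinct genes, and all 33 had enough counts to be tested among 18401 tested genes. By role they are 18 enzymes of synthesis, 5 genes of the SREBP control system, 4 genes of uptake and intracellular transport, 5 genes of the LXR receptors and efflux, and Soat1, which stores cholesterol as esters. The list is not the whole pathway, and 52 further genes of it are described after the members.

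RNA came from dorsal root ganglia of C57BL/6 mice, where the somata of sensory neurons sit wrapped in satellite glia next to the spinal cord. One group received oxaliplatin, a platinum drug used against cancer that injures sensory nerves, at a labelled dose of 10 mg/kg (5 libraries). The other received vehicle (5 libraries), and the design text gives a treatment of 8 weeks. No transgene or genetic change is named for either group, and the sources used here give neither the age of the mice nor whether ganglia of several mice were pooled. The labels do not say that the 5 libraries of a group come from separate animals, so p-values measure the spread between these libraries. Libraries held 52963470 to 60984426 counts. All 9 neuron markers checked were detected in every library, with a sum of 17098 to 18457 CPM (read counts scaled to the TMM-adjusted size of each library) after oxaliplatin and 18249 to 21157 CPM after vehicle. Oxaliplatin replicate 1 stood apart by fat cell and muscle RNA, with 705 CPM summed over 6 tested fat cell markers against 20.2 to 50.8 CPM in the other treated libraries and 10.6 to 38.7 CPM after vehicle. Muscle markers summed to 723 CPM in that library, to 9.61, 13.1, 24.2 and 16.1 CPM in oxaliplatin replicates 2 to 5 and to 96.8 to 479 CPM after vehicle, so the other 4 treated libraries lay below every control. Call counts without replicate 1 are given beside the results.

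Cholesterol is made from acetyl-CoA through mevalonate, farnesyl diphosphate, squalene and lanosterol. Synthesis is governed by feedback: when sterols run low in the endoplasmic reticulum, Scap carries the SREBP transcription factors to the Golgi, where proteases free their active part, and when sterols are plentiful the Insig proteins hold the complex back. Sterols made from cholesterol activate the LXR receptors, which switch on the efflux pumps Abca1 and Abcg1. Myelinating Schwann cells and the glia around sensory neurons are large users and makers of cholesterol, and Apoe carries it between cells.

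The synthesis enzymes lay lower after oxaliplatin as a block, and none of the genes of control, transport, efflux and storage passed the test. All 18 enzymes had a log2 fold change below 0, from -0.46 to -0.01, with a median of -0.28, which is a level 17.7% lower. Over all tested genes the median was 0.01 and 49.0% lay below 0. Of the enzymes 8 fell past the threshold (edgeR quasi-likelihood test over all genes, adjusted p below 0.05) and 0 rose, where 0.772% of all tested genes were called lower and 1.27% higher. The count was 1 without oxaliplatin replicate 4 or 5, 3 without vehicle replicate 4, 6 without oxaliplatin replicate 1 and 0 with satellite glia markers as a covariate. Of all tested genes 0.183%, 0.204%, 0.22%, 0.396% and 0.0272% were called lower in these fits, in that order. In 11 of 18 enzymes every oxaliplatin library lay below every vehicle library, which held for 1.77% of all tested genes, and 2.25% had every oxaliplatin library above. Of the 15 other members 0 were called (edgeR) and 0 had groups apart, with a median of -0.04. An unadjusted edgeR p below 0.05 was held by 17 of the 18 enzymes, all lower. It was held by 2 of the 15 other members, 1 lower and 1 higher. Of all tested genes 7.80% had such a p and were lower. DESeq2 called 14 enzymes lower and, outside synthesis, 1 gene lower (Stard4) and 1 higher (Npc1). It called more of all tested genes too, 2.21% lower (406 genes lower and 516 higher).

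**Figure D1:**
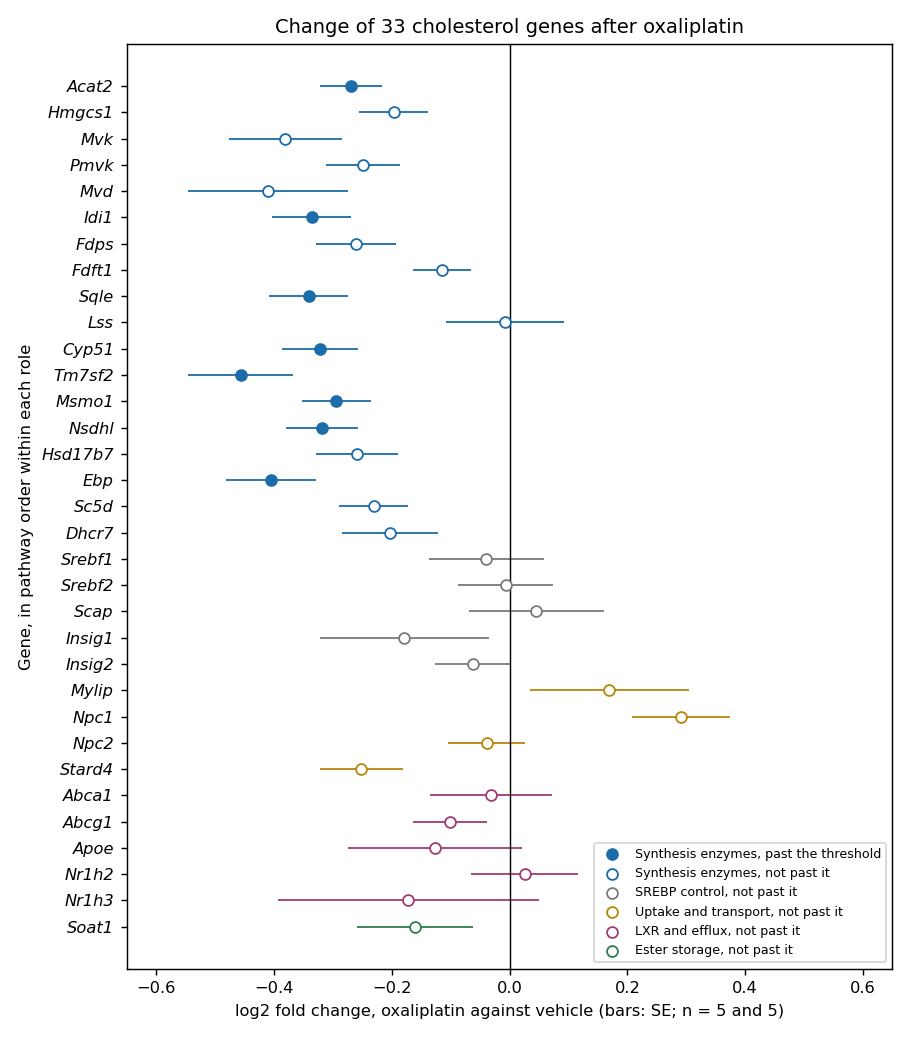
Log2 fold change of each of the 33 genes (x axis, oxaliplatin against vehicle, bars SE, n = 5 and 5) in pathway order within each role (y axis), with filled points for the genes past the threshold. The 18 synthesis enzymes at the top all lie left of 0, while of the 15 genes of the other roles 11 lie left of it and 4 right.

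Promoter sequence is shown for 6 members, enzymes of synthesis and the efflux gene Abca1. RefSeq promoter windows on GRCm38.p6, 250 bases before to 50 after a start site, were on hand for 27 of the 33 members. Each stretch below holds the 250 bases before the start, 5′ to 3′ on the gene's own strand, and capitals mark CCAAT boxes (CCAAT, or ATTGG where the box reads on the other strand) and the sterol regulatory element TCACNCCAC that SREBP proteins bind. Tm7sf2, Ebp and Idi1 are enzymes that fell, Hmgcs1 holds the sterol element, Lss is the enzyme with the smallest change and Abca1 is an efflux gene.
Tm7sf2: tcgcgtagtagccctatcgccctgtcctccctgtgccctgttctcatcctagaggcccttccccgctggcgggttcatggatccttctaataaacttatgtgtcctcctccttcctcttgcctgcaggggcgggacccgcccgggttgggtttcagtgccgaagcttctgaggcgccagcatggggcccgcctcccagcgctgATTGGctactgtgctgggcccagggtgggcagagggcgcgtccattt
Ebp: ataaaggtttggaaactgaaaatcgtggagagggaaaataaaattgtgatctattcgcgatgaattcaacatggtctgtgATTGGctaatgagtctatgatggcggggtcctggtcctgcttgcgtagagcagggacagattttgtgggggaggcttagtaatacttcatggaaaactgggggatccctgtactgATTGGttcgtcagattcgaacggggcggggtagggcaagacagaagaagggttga
Idi1: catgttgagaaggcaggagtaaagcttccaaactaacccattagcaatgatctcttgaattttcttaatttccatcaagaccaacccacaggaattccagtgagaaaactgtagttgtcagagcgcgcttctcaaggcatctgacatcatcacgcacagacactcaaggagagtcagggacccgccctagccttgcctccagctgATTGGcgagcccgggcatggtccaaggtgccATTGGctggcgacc
Hmgcs1: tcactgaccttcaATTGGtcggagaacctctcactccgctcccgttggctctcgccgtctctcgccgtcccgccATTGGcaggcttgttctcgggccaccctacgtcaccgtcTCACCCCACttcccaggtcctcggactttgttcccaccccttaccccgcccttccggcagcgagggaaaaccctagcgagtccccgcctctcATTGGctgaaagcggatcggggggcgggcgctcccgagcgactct
Lss: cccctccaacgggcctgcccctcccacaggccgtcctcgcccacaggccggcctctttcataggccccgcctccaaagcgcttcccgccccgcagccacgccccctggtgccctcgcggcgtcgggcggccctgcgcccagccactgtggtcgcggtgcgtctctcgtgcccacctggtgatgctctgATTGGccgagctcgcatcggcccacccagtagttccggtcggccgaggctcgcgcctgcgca
Abca1: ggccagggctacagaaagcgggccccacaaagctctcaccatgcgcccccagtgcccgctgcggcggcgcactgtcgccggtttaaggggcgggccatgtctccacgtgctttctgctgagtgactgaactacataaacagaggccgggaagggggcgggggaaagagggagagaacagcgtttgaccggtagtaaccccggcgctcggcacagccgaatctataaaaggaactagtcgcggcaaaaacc
The stretches lie at chr19:6067851-6068100 (Tm7sf2, minus strand), chrX:8193513-8193762 (Ebp, minus), chr13:8885356-8885605 (Idi1, plus), chr13:119690101-119690350 (Hmgcs1, plus), chr10:76531355-76531604 (Lss, plus) and chr4:53159896-53160145 (Abca1, minus).

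CCAAT boxes, the sites of the factor NF-Y that often accompanies SREBP proteins, were frequent in the enzymes' windows. On either strand, 14 of the 15 synthesis enzymes with a window held CCAAT in at least 1 of their windows, with Acat2 the exception, against 41.1% of all 27025 genes in the table. Outside synthesis it was in 4 of 5 control genes, 2 of 2 uptake and transport genes, Soat1 and 0 of 4 efflux and LXR genes. In the stretches above the box nearest the start began 47 bases before it in Tm7sf2, 55 in Ebp, 14 in Idi1, 45 in Hmgcs1 and 62 in Lss, each on the opposite strand. Whether the box has a part in the change of any gene was not tested. The element TCACNCCAC was found in 1 of 15 enzymes, Hmgcs1, 137 bases before the start, and in 1.44% of all genes. The GC box GGGCGG was in 14 of 15 enzymes, in 5 of 5 control genes, in 2 of 2 uptake and transport genes, in Soat1, in 1 of 4 efflux and LXR genes and in 38.2% of all genes. Both strands were read, matches of different motifs can share letters at their ends, and a match describes letters in this window, not binding.

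The first 7 enzymes lead from acetyl-CoA to farnesyl diphosphate, which also feeds the prenyl groups of proteins and ubiquinone. Their median log2 fold change was -0.27, and 2 of the 7, Acat2 and Idi1, fell. Acat2, the thiolase that opens the pathway by joining acetyl-CoA units, stood at 412, 436, 383, 402 and 402 CPM in oxaliplatin replicates 1 to 5 and at 486, 481, 501, 463 and 519.7 CPM in vehicle replicates 1 to 5. Every treated library was below every control, and the log2 fold change was -0.27 ± 0.05 (SE, n = 5 and 5, edgeR adjusted p = 0.0164). Idi1, which isomerises the shared building block of isoprenoids, stood at 46.7, 54.5, 51.7, 46.0 and 50.3 CPM after oxaliplatin and at 64.3, 60.6, 59.7, 62.6 and 67.2 CPM after vehicle. Again the groups did not overlap, at -0.34 ± 0.07 (edgeR adjusted p = 0.0180), a level 20.8% lower.

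Mvk, mevalonate kinase, was at 114, 122, 84.5, 105 and 117 CPM after the drug and at 143, 142, 127, 129 and 166 CPM after vehicle. Its groups stayed apart and its mean was 109 ± 14.9 against 141 ± 15.5 CPM (SD, n = 5 and 5), but at -0.38 ± 0.10 it missed the threshold (edgeR adjusted p = 0.0543). Pmvk, the next kinase, was at 150.5, 145, 149, 141 and 145 CPM in the oxaliplatin libraries and at 168, 163, 186, 156 and 194 CPM in the vehicle libraries. This pair of groups was apart too, and its edgeR adjusted p was 0.0530 at -0.25 ± 0.06. The other 3 genes overlapped between groups and were not called: Hmgcs1, which makes HMG-CoA, had -0.20 ± 0.06, the decarboxylase Mvd -0.41 ± 0.14 and Fdps, the farnesyl diphosphate synthase, -0.26 ± 0.07. In Hmgcs1 vehicle replicate 5, at 796 CPM, lay below oxaliplatin replicates 1 and 2, at 799.7 and 811 CPM. Relative to its mean, Mvd spread most among the enzymes in each group, from 71.7 to 108 CPM after oxaliplatin and from 90.3 to 147 CPM after vehicle.

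Squalene synthase (Fdft1), squalene epoxidase (Sqle) and lanosterol synthase (Lss) follow, and they differed among themselves. Sqle, an oxygen-dependent step under tight sterol control, fell to 302, 364, 303, 308 and 308 CPM from 412, 425, 353, 392 and 426 CPM in the vehicle libraries (-0.34 ± 0.07, edgeR adjusted p = 0.0164). Oxaliplatin replicate 2 was the only treated library above a control, vehicle replicate 3. Fdft1, which commits farnesyl diphosphate to sterols, was at 654, 653, 613, 646 and 631 CPM against 678, 679, 742, 658 and 705 CPM. Its groups were apart by a small margin and the change of -0.11 ± 0.05 was not called (edgeR adjusted p = 0.259). Lss, which closes the sterol rings, stood at 45.1, 35.2, 31.1, 37.0 and 40.5 CPM after oxaliplatin and at 44.7, 38.9, 37.6, 33.4 and 35.4 CPM after vehicle. The values interleave, and the difference was -0.01 ± 0.10 on the log2 scale (edgeR adjusted p = 0.982), or 0.025 without the TMM composition factor.

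The 8 enzymes from lanosterol to cholesterol had the lowest stage median, -0.31, and 5 of them fell. Tm7sf2, a sterol reductase, had the largest change of all members: 56.0, 77.6, 54.5, 62.4 and 62.5 CPM after oxaliplatin against 85.5, 84.0, 80.1, 82.3 and 97.4 CPM after vehicle. No treated library reached the controls, and the level was 27.1% lower (-0.46 ± 0.09, edgeR adjusted p = 0.0164). Ebp, the isomerase that moves a ring double bond, stood at 50.1, 63.8, 60.1, 56.3 and 55.7 CPM against 69.7, 70.4, 76.0, 77.8 and 84.9 CPM. It was 24.5% lower with groups apart (-0.41 ± 0.08, edgeR adjusted p = 0.0138), the smallest adjusted p of the members. Cyp51, the cytochrome that demethylates lanosterol, was at 110.1, 124, 105, 102 and 104 CPM in treated and 139, 136, 125, 136 and 145 CPM in control libraries. The highest treated value, in replicate 2, came just under the lowest control (-0.32 ± 0.07, edgeR adjusted p = 0.0193).

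Msmo1 and Nsdhl act one after the other to strip methyl groups from the ring. Msmo1 stood at 246, 298, 273, 250.3 and 253 CPM after oxaliplatin and at 318, 315, 333, 322 and 329.7 CPM after vehicle, with groups apart (-0.29 ± 0.06, edgeR adjusted p = 0.0179). Nsdhl was at 137, 152, 148, 152 and 149 CPM against 178, 182, 192, 166 and 202 CPM, also apart (-0.32 ± 0.06, edgeR adjusted p = 0.0149). Sc5d, a late desaturase, was at 201, 227, 196, 184 and 199 CPM after the drug and at 235, 234, 243, 229 and 239 CPM after vehicle. Although no library crossed over, its change of -0.23 ± 0.06 lay just outside the threshold (edgeR adjusted p = 0.0512). Hsd17b7, a ketosterol reductase, and Dhcr7, the reductase whose product is cholesterol, overlapped between groups, at -0.26 ± 0.07 and -0.20 ± 0.08 (edgeR adjusted p = 0.0679 and 0.221). In Hsd17b7 the overlap came from oxaliplatin replicate 1 alone, at 70.4 CPM against a lowest control of 69.4 CPM.

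**Figure D2:**
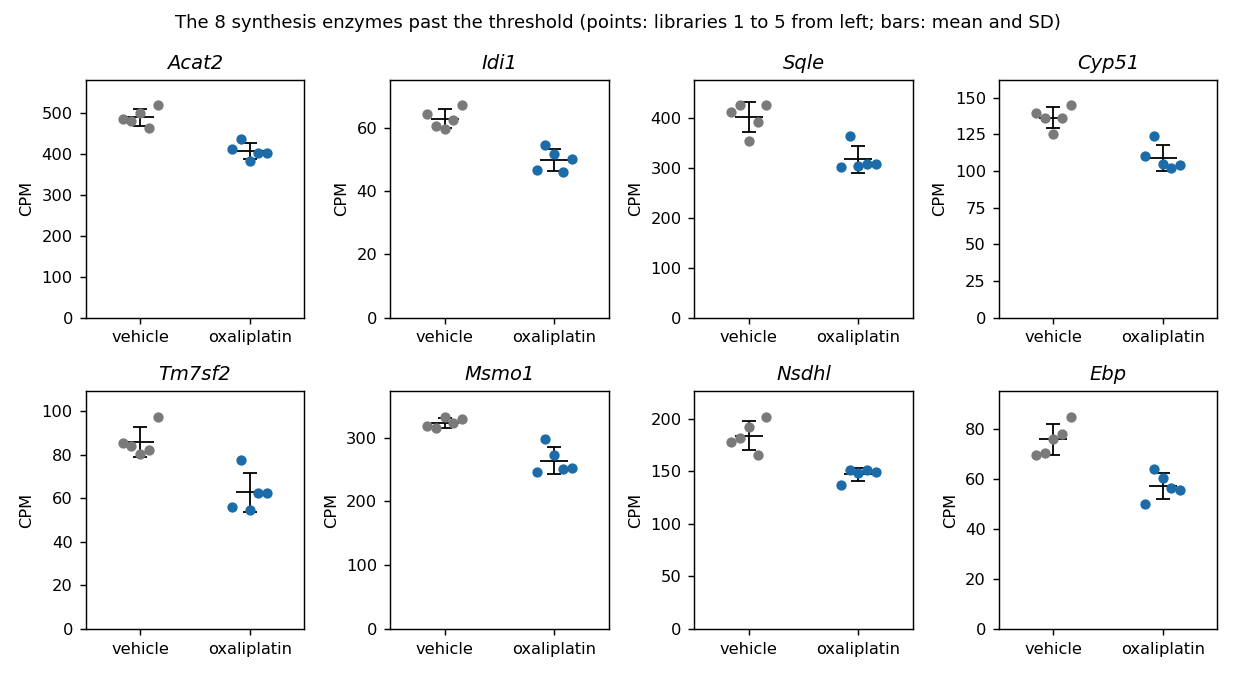
CPM (y axis, from 0) of the 8 synthesis enzymes past the threshold in each vehicle and oxaliplatin library (x axis), with points ordered by replicate number and bars for the mean and SD of 5 libraries. Every treated library lies below every control in 7 of the panels, and in Sqle oxaliplatin replicate 2, at 364 CPM, lies above vehicle replicate 3, at 353 CPM.

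The treated libraries differed in how far the enzymes lay below the controls. The median ratio of the 18 enzymes to their vehicle means was -0.30, -0.14, -0.32, -0.33 and -0.31 on the log2 scale in oxaliplatin replicates 1 to 5, and 0.00, -0.02, 0.00, -0.06 and 0.09 in vehicle replicates 1 to 5. Oxaliplatin replicate 2 was the treated library nearest the controls and had the highest treated value in 13 of 18 enzymes, and replicate 1 had it in the other 5. No library held 1 place throughout: oxaliplatin replicate 1 was also lowest of its group in 4 enzymes, and vehicle replicate 3 was highest in 4 and lowest in 7. In the vehicle group replicate 5 was highest in 11 of 18. Summed over the enzymes, the level was 3870 to 4333 CPM after oxaliplatin and 4575 to 4965 CPM after vehicle, with no overlap. Per kilobase of exon, vehicle means of the 18 enzymes ran from 3.52 CPM for Lss to 193 for Acat2. Those of the 8 that fell ran from 17.9 CPM for Idi1 and 19.5 for Tm7sf2 to 72.4 for Sqle and 193 for Acat2.

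**Figure D3:**
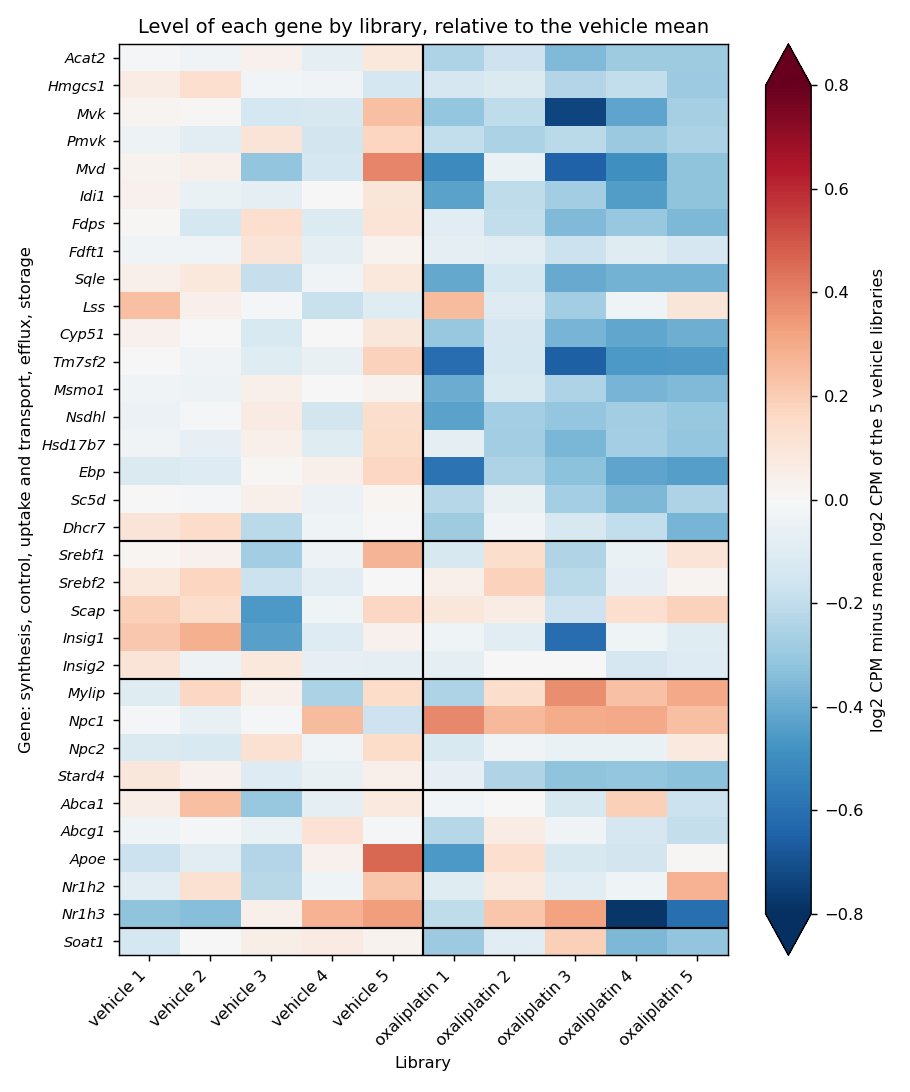
Log2 CPM of each gene (rows, by role) in each library (columns) minus the mean of the 5 vehicle libraries, blue for lower and red for higher. The oxaliplatin columns are blue through nearly all synthesis rows, palest in replicate 2, whereas the rows of the other roles show no such block.

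None of the 5 genes that control synthesis passed the test. Srebf2, the SREBP factor that drives the synthesis genes, had 93.2, 103, 77.8, 86.5 and 91.8 CPM after oxaliplatin and 95.9, 102, 80.2, 85.3 and 90.8 CPM after vehicle. Its means were 90.4 ± 9.16 and 90.8 ± 8.55 CPM (SD, n = 5 and 5), at -0.01 ± 0.08 (edgeR adjusted p = 0.982) and 0.025 without a composition factor. Srebf1, the factor tied more to fatty acid synthesis, was at -0.04 ± 0.10, the escort Scap at 0.05 ± 0.12 and the retention protein Insig2 at -0.06 ± 0.06. Insig1, itself a target of SREBP factors, was the control gene with the smallest p and the largest change, at 97.0, 93.5, 65.1, 97.0 and 92.9 CPM against 115, 121, 73.4, 92.5 and 102 CPM. Replicate 3 was lowest in each group, the ranges overlapped and the change of -0.18 ± 0.14 was not called (edgeR adjusted p = 0.601). These are levels of mRNA, while the activity of SREBP proteins depends on cleavage, which was not measured.

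Among the 4 genes of uptake and transport 0 were called, and they went in different directions. Npc1, the lysosomal membrane protein that exports cholesterol taken up with lipoproteins, stood at 33.5, 30.8, 31.6, 31.7 and 30.4 CPM after oxaliplatin and at 25.4, 24.7, 25.5, 30.7 and 22.9 CPM after vehicle. Vehicle replicate 4 was the only control to reach the treated range. The difference was 0.29 ± 0.08 (edgeR adjusted p = 0.0839), with an adjusted p of 0.0433 without that library and of 0.0805 to 0.182 without each of the other libraries. Its soluble partner Npc2 was at -0.04 ± 0.07. Stard4, a cytosolic sterol carrier that SREBP factors also switch on, had 51.3, 45.5, 43.0, 43.3 and 42.7 CPM against 57.1, 55.0, 49.9, 51.4 and 55.2 CPM. Only oxaliplatin replicate 1 reached the controls, and at -0.25 ± 0.07 the gene missed the threshold (edgeR adjusted p = 0.0793). Mylip, a ubiquitin ligase that removes lipoprotein receptors, had 5.41 to 8.34 CPM after the drug and 5.39 to 7.22 CPM after vehicle (0.17 ± 0.14).

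The LXR and efflux genes gave 0 calls among 5 and a median of -0.10. Abcg1, a pump that passes cholesterol to lipoproteins, had the smallest p of these, with 185, 226, 212, 198 and 189.8 CPM after oxaliplatin and 211, 214, 209, 235 and 214 CPM after vehicle. Treated replicates 2 and 3 lay inside the control range (-0.10 ± 0.06, edgeR adjusted p = 0.459). Nr1h3, which codes for LXR alpha, had the largest difference, -0.17 ± 0.22, and the widest spread: 9.11, 12.2, 13.1, 6.11 and 6.89 CPM against 8.39, 8.27, 10.8, 12.7 and 13.2 CPM. High and low libraries occurred in both groups. Nr1h2, LXR beta, was at 0.03 ± 0.09 and the pump Abca1 at -0.03 ± 0.10, or 0.000305 without a composition factor. Apoe was the most abundant member per kilobase, at 1568 CPM in vehicle libraries. Its level ran from 2396 to 3625 CPM after oxaliplatin and from 2806 to 4537 CPM after vehicle (-0.13 ± 0.15, edgeR adjusted p = 0.743). Soat1, which esterifies cholesterol for storage, had 27.7, 31.8, 38.6, 26.4 and 27.1 CPM against 30.7, 33.8, 35.0, 35.4 and 34.5 CPM. Oxaliplatin replicate 3 was the highest of all 10 libraries and the other treated libraries were low or within the controls (-0.16 ± 0.10, edgeR adjusted p = 0.456).

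Other genes of the pathway, 52 on a list outside the members, did not share the shift. Of these 1 rose and 0 fell (edgeR), with a median of -0.01. Such counts are near the shares over all tested genes, 1.27% called higher and 0.772% lower. The gene that rose was Cyp27a1, a mitochondrial cytochrome that turns cholesterol into an oxysterol, from 3.65, 4.40, 4.99, 5.08 and 5.41 CPM after vehicle to 7.33, 6.09, 7.01, 6.07 and 9.80 CPM after oxaliplatin. The groups were apart (0.62 ± 0.15, edgeR adjusted p = 0.0462), but the call held in 2 of 10 fits that left out 1 library. Those were the fits without oxaliplatin replicate 2 or vehicle replicate 5, and its adjusted p reached 0.149 in the others. With Schwann cell markers as a covariate Cyp27a1 was not called (edgeR adjusted p = 0.128). The 14 genes that supply acetyl-CoA and electrons or branch to other isoprenoids had a median of -0.03, with Pdss2, of ubiquinone synthesis, at -0.20 ± 0.08 (edgeR adjusted p = 0.216). Among 10 further control genes Mbtps1, which cuts SREBP proteins in the Golgi, was at 0.21 ± 0.08 (edgeR adjusted p = 0.186). Among 13 further uptake and transport genes 8 lay below 0 and 5 above. The lipoprotein receptor Lrp8, of smallest p, was at -0.35 ± 0.10 (edgeR adjusted p = 0.0790). The receptors Lrp1 and Vldlr lay higher, at 0.20 ± 0.06 and 0.28 ± 0.10 (edgeR adjusted p = 0.129 and 0.149), Lrp1 with groups apart. Of 3 further storage genes the ester hydrolase Nceh1 was at -0.17 ± 0.06 (edgeR adjusted p = 0.144).

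In whole ganglia, fewer cells of a type and less RNA per cell cannot be told apart. Schwann cell markers lay mostly higher after oxaliplatin, 13 above 0 and 3 below. Satellite glia markers went both ways, 3 above 0 and 4 below. Of 16 tested Schwann cell markers 2 rose and 0 fell, with a sum of 9856 to 13046 CPM after oxaliplatin and 8851 to 11952 CPM after vehicle. With the mean of that list as a covariate 13 enzymes and 2.24% of all tested genes were called lower, and the enzyme median was -0.32. Satellite glia markers had 1 of 7 higher and 1 lower, Fabp7 (-0.98 ± 0.18, edgeR adjusted p = 0.0298, called in 3 of 10 fits that left out 1 library), with sums of 526 to 672 and 589 to 764 CPM. With that list as a covariate, chosen after seeing the data, the enzyme median was -0.28 while 0 of 18 enzymes and 31 of all tested genes were called. Macrophage markers had 1 of 10 lower and 0 higher (53.3 to 76.4 against 49.9 to 91.4 CPM), fibroblast markers 1 of 6 higher (895 to 1131 against 762 to 988 CPM) and endothelial markers 2 of 7 higher (76.5 to 84.8 against 54.2 to 78.2 CPM). Neuron markers had 0 of 9 called, with 5 below 0 and 4 above at a median of -0.03. The lowest were Tubb3 at -0.20 ± 0.06 and Stmn2 at -0.19 ± 0.06 (edgeR adjusted p = 0.113 and 0.0919). Muscle markers had 0 of 6 called, at a median of -0.90. In them the 4 treated libraries other than replicate 1 lay below all controls, at 9.61 to 24.2 against 96.8 to 479 CPM. Of 8 fat cell markers 6 could be tested, Plin1 and Lep being below the filter, and 0 were called at a median of 2.44. The part of cell makeup in the fall of the enzymes was not tested beyond these fits.

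The count of calls depended on single libraries more than the size of the shift did. Without oxaliplatin replicate 4 or 5 the test called 1 enzyme lower in each case. Without vehicle replicate 4 it called 3 and without oxaliplatin replicate 1, the library with fat cell RNA, it called 6. Calls fell among all tested genes too, with 0.183%, 0.204%, 0.22% and 0.396% called lower in these fits, in that order. The other left-out libraries gave 7 to 11, where 0.412% to 1.35% of all tested genes were called lower. The enzyme median stayed between -0.31 and -0.26 over all 10 fits. Nsdhl was called in 10 of these 10 fits, Acat2 in 8, Tm7sf2 and Ebp in 7, and Idi1, Sqle, Cyp51 and Msmo1 in 6. Acat2 lost its call without oxaliplatin replicate 4 or 5 (adjusted p = 0.0618 and 0.0631), Tm7sf2 without oxaliplatin replicate 1, 4 or 5 (up to 0.0618), and Ebp when oxaliplatin replicate 4 or 5, or control replicate 4, was left out (up to 0.0514). Idi1, Sqle and Msmo1 lost theirs when oxaliplatin replicate 1, 4 or 5, or control replicate 4, was left out (up to 0.0684, 0.0681 and 0.0682), and Cyp51 when oxaliplatin replicate 4 or 5, or control replicate 1 or 4, was left out (up to 0.0729). Enzymes just outside the threshold gained a call in turn: Mvk, Mvd and Sc5d without oxaliplatin replicate 2 (0.0386, 0.0462 and 0.0137), Hsd17b7 without oxaliplatin replicate 1 (0.0494), Fdps without that library or vehicle replicate 2 (0.0475 and 0.0445) and Hmgcs1 without vehicle replicate 5 (0.0493). Without both oxaliplatin replicate 1 and vehicle replicate 5 the only enzyme called was Ebp, at an enzyme median of -0.27, with 0.411% of all tested genes called lower. Every alternative left 17 or 18 of the 18 enzymes below 0, with Lss the gene that changed sign.

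**Figure D4:**
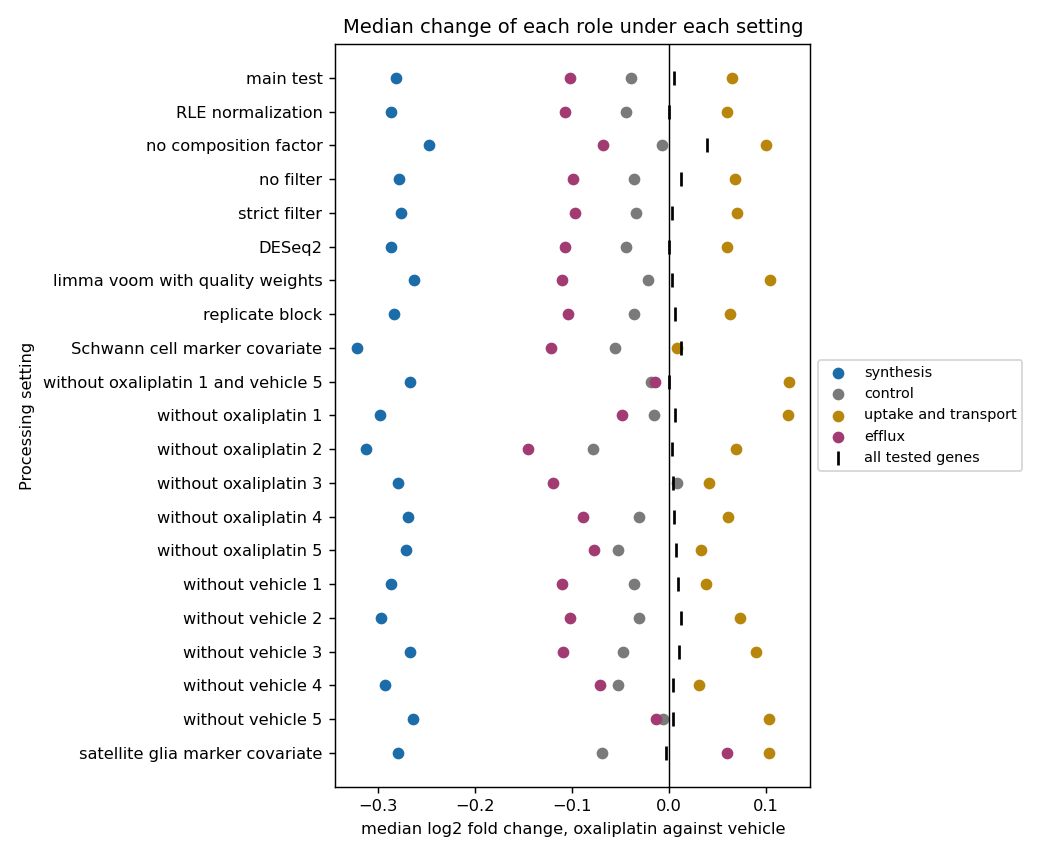
Median log2 fold change (x axis) of the synthesis, control, uptake and transport, and efflux genes and of all tested genes under each processing setting (y axis). The synthesis median stays between -0.32 and -0.25 in every row, apart from all other medians, which lie between -0.15 and 0.12.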

How the data were processed

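RNA of 10 dorsal root ganglion libraries, 5 per group, was kept in RNAlater, extracted on magnetic beads and made into libraries with a SMARTer kit, per the labels' protocols. The authors deposited raw read counts per Ensembl gene, whole numbers in a table of 40757 rows, of which 276 identical repeats were dropped. STAR 2.5.1a, Partek and DESeq2 are named, without their roles, per the submitters' processing notes, and the sources used here give no genome build, annotation or strand setting. No 2 libraries of a group were alike within sampling noise (lowest chi-square per degree of freedom 12.8).

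Counts were tested with edgeR 4.0.16 in R 4.3.3 (filterByExpr, TMM scaling, robust quasi-likelihood test of oxaliplatin against vehicle, Benjamini-Hochberg adjustment over 18401 genes, threshold 0.05). SE is the size of the log2 fold change divided by the square root of F. Log2 CPM used a prior count of 2, and levels per kilobase used the exon length of GENCODE M21. The test was tried on simulated counts first, in which the altered genes were set to change by more than any enzyme did. Recovery of changes as small as those of the enzymes was not tried. Alternatives were DESeq2 1.42.0, limma 3.58.1 (voom with quality weights), other scaling and filters, the replicate number as a block, marker covariates and left-out libraries. Members and gene lists were chosen with earlier results of these data known. By rule, every library is given for members past the threshold, members whose groups do not overlap, and the members of smallest p and largest change in each role. Of the other pathway genes those past the threshold are named, or the one of smallest p in each role. Lrp1 and Vldlr are given beside Lrp8 outside that rule.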

Additional observations from a re-analysis of the deposited data

Results flagged for a closer look

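In 4 of 66 groups of 5 libraries a member had 1 library far from the other 4 by Dixon's test, and chance gives about 5% of groups. Sqle was at 364 CPM in oxaliplatin replicate 2, with the other treated libraries at 302 to 308 CPM. Nsdhl was at 137 CPM in oxaliplatin replicate 1, with the others at 148 to 152 CPM. Insig1 was at 65.1 CPM in oxaliplatin replicate 3, with the others at 92.9 to 97.0 CPM. Abcg1 was at 235 CPM in vehicle replicate 4, with the other vehicle libraries at 209 to 214 CPM. Of these genes, Nsdhl kept its call without each library in turn.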

How the results depend on the processing

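The main test called 8 members lower, 0 higher and 376 genes in all. DESeq2 called 15 lower, 1 higher and 922 in all, and voom with quality weights 12 lower and 804 in all. The labels number replicates 1 to 5 in each group, but same-numbered libraries deviated together with r = 0.09, -0.04, 0.21, -0.02 and 0.15, so the numbers were not taken as pairs. With the replicate block 16 members were called lower, 1 higher and 660 genes in all. The Schwann cell covariate gave 13 lower and 835 in all, the satellite glia covariate, chosen after seeing the data, 0 lower, 31 in all and an efflux median of 0.060, and leaving out both oxaliplatin replicate 1 and vehicle replicate 5 gave 1 lower and 218 in all. Leaving out 1 library gave 1 to 11 members lower, 0 to 1 higher and 113 to 594 genes in all. Fewer libraries enter those fits, and the cause of the other shifts was not tested. Without a composition factor 75.4% of calls were higher (303 higher, 99 lower), against 62.2% in the main test.

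Among members that no fit called, signs changed as follows, as log2 fold changes. Without a composition factor Lss was at 0.025, Srebf2 at 0.025 and Abca1 at 0.000305. Under voom Lss was at 0.020. With the Schwann cell covariate Lss was at 0.065, Srebf2 at 0.011, Abca1 at 0.069 and Nr1h2 at -0.058. Without both named libraries Srebf1 was at 0.058, Npc2 at 0.020 and Apoe at 0.083. With the satellite glia covariate Apoe was at 0.060 and Nr1h3 at 0.19. Leaving out 1 library, Lss ran from -0.076 to 0.057, Srebf1 from -0.098 to 0.035, Srebf2 from -0.057 to 0.043, Scap from -0.047 to 0.097, Npc2 from -0.069 to 0.000313, Abca1 from -0.096 to 0.035, Apoe from -0.19 to 0.0070 and Nr1h2 from -0.043 to 0.086. The synthesis median stayed between -0.32 and -0.25 under every alternative run. Depth limits few of these values, since Mylip, the member of lowest level, had at least 5.39 CPM in every library, and the biological coefficient of variation over all tested genes was 19.3%.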
